A study of Mus musculus with 6 samples.

Results

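Hepatocytes take up fatty acids from the blood, hold them on cytosolic binding proteins and link them to coenzyme A before they are stored or burned. The 10 genes described here cover these steps and were chosen by name: *Cd36*, *Lpl*, *Vldlr*, *Slc27a1*, *Slc27a2*, *Slc27a4*, *Fabp1*, *Fabp2*, *Fabp4* and *Acsl1*. All 10 were found among the 21528 genes that the tables list. Liver RNA came from 3 WT and 3 TRIM24C52/55A mice of strain C57BL/6 (the knockin was made in C57Bl/6J), 5 months old, and each mouse gave 1 library. Both groups had eaten a high-fat diet (HFD) with 60% fat for 3 months. In the TRIM24C52/55A mice, cysteines 52 and 55 of TRIM24, an E3 ubiquitin ligase, are replaced by alanine. The mice are homozygous, their controls are WT littermates, and the knockin is carried in every tissue and not in the liver alone. The comparison asks how the transcripts of these genes differ between the fatty livers of WT mice and those of mice without the ligase activity.

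CD36 is a membrane receptor that binds long-chain fatty acids and promotes their entry into cells. Lipoprotein lipase, encoded by *Lpl*, frees fatty acids from circulating triglyceride, and the VLDL receptor (*Vldlr*) holds triglyceride-rich particles at the cell surface. The fatty acid transport proteins (*Slc27a1*, *Slc27a2* and *Slc27a4*) and the long-chain acyl-CoA synthetase *Acsl1* activate fatty acids, which keeps them inside the cell. The fatty acid-binding proteins carry them through the cytosol, with *Fabp1* known from liver, *Fabp2* from the intestine and *Fabp4* from adipocytes and macrophages. Several of these genes are known targets of the nuclear receptors PPARα and PPARγ, which bind as partners of RXR to direct repeats of AGGTCA spaced by 1 base.

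Of the 10 genes, 8 have a promoter window in RefSeq (GRCm38.p6, from 250 bases before to 50 bases after the transcription start), in 12 windows. The direct repeat of AGGTCA with 1 base between the copies was in 0 of the 12 and in 0.0396% of 32851 windows of all genes. A looser repeat, of AGGNCA with 1 base between the copies, was in 1 of the 12 windows, that of *Fabp1*, and in 0.381% of all windows. The copy AGGTCA alone was in 3 of the 12 windows (*Fabp1*, *Cd36* and *Slc27a2*) and in 16.3% of all windows. Both strands were searched. The 250 bases before the start are shown 5′ to 3′ on the strand of the gene for the gene with the looser repeat and, for comparison, for *Cd36* and *Fabp2*, the members of lowest adjusted p. Capitals mark each match.

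*Fabp1*, chr6:71199629-71199878, + strand: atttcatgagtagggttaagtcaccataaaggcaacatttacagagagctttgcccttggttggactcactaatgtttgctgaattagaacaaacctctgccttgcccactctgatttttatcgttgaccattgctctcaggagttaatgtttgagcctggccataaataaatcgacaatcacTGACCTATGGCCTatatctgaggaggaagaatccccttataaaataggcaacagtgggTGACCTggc

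*Cd36*, chr5:17835897-17836146, - strand: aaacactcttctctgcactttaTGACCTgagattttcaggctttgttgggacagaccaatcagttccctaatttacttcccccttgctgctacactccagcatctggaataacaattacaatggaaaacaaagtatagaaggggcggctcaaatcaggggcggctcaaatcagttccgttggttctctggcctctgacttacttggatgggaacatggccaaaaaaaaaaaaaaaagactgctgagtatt

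*Fabp2*, chr3:122894822-122895071, + strand: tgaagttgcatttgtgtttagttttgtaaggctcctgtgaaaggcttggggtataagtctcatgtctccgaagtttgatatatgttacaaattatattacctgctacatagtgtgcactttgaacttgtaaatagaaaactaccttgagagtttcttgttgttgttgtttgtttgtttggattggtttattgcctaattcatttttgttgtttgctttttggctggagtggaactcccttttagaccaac

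The looser repeat of *Fabp1* covers bases -67 to -55 from the start and reads AGGCCATAGGTCA on the strand opposite to the gene. Its AGGTCA copy is also a match of the single copy, and a second single copy lies at bases -9 to -4. In the *Cd36* window the single copy lies at bases -228 to -223. That window lies inside the annotated gene (17781690 to 17888801, - strand, 6 transcripts), at an internal start. The sequence before the outer end of the gene at 17888801 was not searched. The *Fabp2* window held none of these letters. A match describes letters only, and binding was not measured.

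Levels were deposited as FPKM, the fragments of a gene scaled to transcript length and sequencing depth, so levels of different genes can be set side by side per length. Libraries listed 17709 to 17984 genes each. Their depth relative to WT replicate 1, read from the steps of low values, came out at 0.954 to 1.03. That search covered only ratios near 1 and rested on as few as 21 of 1993 low genes (TRIM24C52/55A replicate 1). It therefore cannot show that depths were equal, and the absolute depth is unknown. In WT livers the order of mean FPKM ran from *Fabp1* over *Slc27a2*, *Acsl1*, *Fabp2*, *Cd36*, *Fabp4*, *Slc27a4*, *Slc27a1* and *Lpl* to *Vldlr*. Of these neighbours only *Slc27a1* and *Lpl* overlapped among the 3 WT libraries. *Fabp1* alone held 0.962%, 0.897% and 0.902% of all FPKM in the WT libraries. In the TRIM24C52/55A livers this share was 0.567%, 0.649% and 0.572%. The upper part of the order, from *Fabp1* to *Fabp2*, was the same in the TRIM24C52/55A livers. Below it the ranges of *Fabp4* and *Cd36*, of *Slc27a4* and *Lpl*, and of *Lpl* and *Slc27a1* overlapped in that group.

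Differences were tested on log2(FPKM + 1) with limma over the 12225 genes whose mean reached 0.5 FPKM, and called at a Benjamini-Hochberg adjusted p under 0.05. All 10 members passed this filter, *Vldlr* only through WT, with a mean of 1.08 FPKM in WT and 0.489 FPKM in TRIM24C52/55A livers. The p-values measure the spread between mice. An exact permutation test of 3 against 3 mice cannot go below p = 0.1. A fold change on this scale understates how much weakly expressed genes change. Of the 10, 4 were called lower in the TRIM24C52/55A liver (*Cd36*, *Fabp1*, *Fabp2* and *Slc27a4*), against 6.09% of all genes tested. The count was 2 without WT replicate 1 or without TRIM24C52/55A replicate 1. No member was called higher, against 1.64% of all genes. All TRIM24C52/55A libraries lay below all WT libraries for 6 of the 10, *Vldlr* among them, against 22.5% of all genes tested. They lay above all WT libraries for 0, against 6.31%. With median-of-ratios scaling 406 genes were lower and 250 higher in place of 744 and 200, and with TPM (FPKM brought to the same sum in each library) 1358 and 197, so the split of all calls moved with the scaling.

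**Figure D1:**
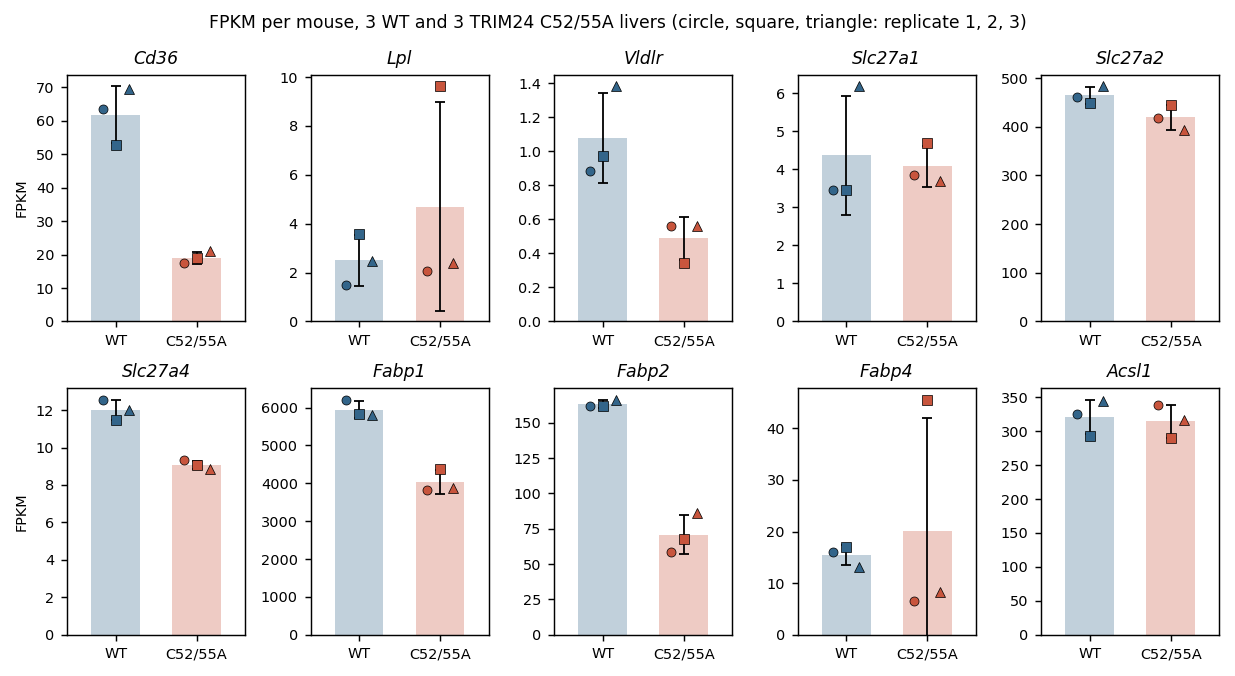
FPKM (linear axes from 0) of the 10 genes in 3 WT and 3 TRIM24C52/55A (C52/55A) livers. Bars are means, error bars SD (the lower bar of *Fabp4* is cut at 0) and symbols single mice; the C52/55A mice lie below all WT mice in *Cd36*, *Vldlr*, *Slc27a2*, *Slc27a4*, *Fabp1* and *Fabp2*.

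*Cd36* (ENSMUSG00000002944, chromosome 5, 17781690 to 17888801) had the lowest log2 fold change of the 10 genes. In WT replicates 1 to 3 it stood at 63.4, 52.7 and 69.5 FPKM, and in TRIM24C52/55A replicates 1 to 3 at 17.4, 18.9 and 21.0 FPKM. Every TRIM24C52/55A value was under the lowest WT value, and the spread within the TRIM24C52/55A group was small. The log2 fold change was -1.64, with a standard error of 0.12, a 95% confidence interval of -1.91 to -1.37 and, by limma, an adjusted p of 0.000333. Each of 13 alternative settings kept the call, with a log2 fold change between -1.75 and -1.51.

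*Cd36* is known to be more abundant in female than in male mouse liver, and sex-biased liver genes moved with the genotype. The labels do not give the sex of the mice. The Y-linked gene *Ddx3y* was at 5.62 to 7.05 FPKM over the 6 libraries, and *Xist*, which marks the inactive X chromosome of females, was at most 0.00403 FPKM in any of them, so the libraries of both groups carried the expression pattern of males at these genes. Both were chosen after their values were seen. Of 10 male-biased genes 9 were called higher and 0 lower, and their summed level was 4592 to 7686 FPKM in WT and 15901 to 21196 FPKM in TRIM24C52/55A libraries. Of 10 female-biased genes 4 passed the filter on low FPKM and 3 were called lower, with sums of 41.4 to 106 FPKM in WT and 3.07 to 29.5 FPKM in TRIM24C52/55A libraries. *Cyp2b9*, a large part of these sums in most libraries, overlapped between the groups (16.1, 19.9 and 78.7 FPKM in WT and 7.70, 1.07 and 25.2 FPKM in TRIM24C52/55A replicates 1 to 3) and was the tested gene not called (adjusted p = 0.228 from limma). *Cyp17a1*, a steroid hydroxylase among them, fell by 2.96 on the log2 scale (adjusted p = 0.000494 from limma). The part of this shift in the fall of *Cd36* was not tested.

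*Lpl* (ENSMUSG00000015568, chromosome 8, 68880491 to 68907448) was low in liver, with 1.47, 3.57 and 2.46 FPKM in WT and 2.08, 9.62 and 2.37 FPKM in TRIM24C52/55A replicates 1 to 3. The groups overlapped, and TRIM24C52/55A replicate 2 was 2.69 times the highest of the other libraries. By limma the log2 fold change was 0.50 (standard error 0.45, 95% confidence interval -0.53 to 1.53, adjusted p = 0.562), and without replicate 2 it was -0.07. The direction of *Lpl* therefore rested on that library.

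*Vldlr* (ENSMUSG00000024924, chromosome 19, 27216484 to 27254231) had the lowest level of the 10. It had 0.884, 0.973 and 1.38 FPKM in WT and 0.562, 0.344 and 0.561 FPKM in TRIM24C52/55A replicates 1 to 3. The groups did not overlap, and the mean in the TRIM24C52/55A liver was 0.453 times that in WT. At such a level the added 1 FPKM matters: the log2 fold change was -0.48 with the pseudocount of 1 and -1.0 with a pseudocount of 0.1. The adjusted p was 0.0636 from limma (interval of the log2 fold change from -0.78 to -0.18 before adjustment), and TPM brought it to 0.0406.

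Of the 3 fatty acid transport proteins, *Slc27a4* alone was called, and differences among the 3 were not tested. *Slc27a4* (FATP4; ENSMUSG00000059316, chromosome 2, 29802634 to 29817522) had 12.6, 11.5 and 12.0 FPKM in WT and 9.31, 9.05 and 8.84 FPKM in TRIM24C52/55A replicates 1 to 3. The groups were tight and apart, and the log2 fold change was -0.37 (standard error 0.08, interval from -0.55 to -0.18, adjusted p = 0.0321 from limma). That call was lost in 9 of 13 alternatives, with adjusted p-values up to 0.124, among them median-of-ratios scaling (log2 fold change -0.27, adjusted p = 0.105). It was also lost when any WT library was left out (0.0711 to 0.124), and without TRIM24C52/55A replicate 1 (0.0870) or 3 (0.0791).

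*Slc27a2* (FATP2; ENSMUSG00000027359) is an abundant transport protein of hepatocytes. It had 462, 448 and 483 FPKM in WT and 419, 445 and 394 FPKM in TRIM24C52/55A replicates 1 to 3. The highest TRIM24C52/55A library stood just under the lowest WT library, and the log2 fold change was -0.15 with an interval from -0.33 to 0.03 (adjusted p = 0.301 from limma). With median-of-ratios scaling the groups overlapped and the log2 fold change was -0.05, and with quantile normalization it was -0.01. The reported interval corresponds to between 0.797 and 1.02 times the WT level. The files place the gene on chromosome 2 from 126521202 to 126588243, or 67.0 kb, and GENCODE M21 from 126552407, or 35.8 kb, with no other coding gene in the longer interval.

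*Slc27a1* (FATP1; ENSMUSG00000031808, chromosome 8, 71568882 to 71587302), known from muscle and adipose tissue, was low. Its values were 3.46, 3.46 and 6.18 FPKM in WT and 3.84, 4.69 and 3.70 FPKM in TRIM24C52/55A replicates 1 to 3. The groups overlapped, with WT replicate 3 apart from the other libraries, and the log2 fold change was -0.05 with an interval from -0.48 to 0.39. Its sign turned with median-of-ratios and quantile scaling and without WT replicate 3 or TRIM24C52/55A replicate 3. The level of *Slc27a2* was 36.8 to 40.3 times that of *Slc27a4* in WT and 44.5 to 49.2 times in TRIM24C52/55A libraries.

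The liver form *Fabp1* (ENSMUSG00000054422, chromosome 6, 71199827 to 71205023), whose promoter holds the looser repeat shown above, was the most abundant of the 10. It had 6211, 5818 and 5817 FPKM in WT and 3819, 4388 and 3872 FPKM in TRIM24C52/55A replicates 1 to 3. The groups were far apart for their spread, with means of 5949 ± 227 and 4026 ± 314 FPKM (SD, n = 3 each). The log2 fold change was -0.57 (standard error 0.09, interval from -0.78 to -0.35, adjusted p = 0.0119 from limma). The adjusted p rose above 0.05 in 3 of 13 alternatives: without a filter on low values (0.0788), without WT replicate 1 (0.0548) and without TRIM24C52/55A replicate 1 (0.0619). The size of the fall moved with the scaling, to -0.94 with quantile normalization and -0.46 with median-of-ratios scaling.

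*Fabp2*, the intestinal form (ENSMUSG00000023057), was also called lower. Its values were 162, 162 and 166 FPKM in WT and 58.6, 67.9 and 85.8 FPKM in TRIM24C52/55A replicates 1 to 3. The WT libraries were nearly alike, and the TRIM24C52/55A libraries all lay well below them. The log2 fold change was -1.21 (standard error 0.13, interval from -1.51 to -0.92, adjusted p = 0.00217 from limma), and it was called in each of 13 alternatives (-1.07 with quantile normalization). *Fabp1* was 35.0 to 38.4 times *Fabp2* in WT and 45.1 to 65.2 times in TRIM24C52/55A libraries, with no overlap. The files place *Fabp2* on chromosome 3 from 122864737 to 122924116, or 59.4 kb, against 122895072 to 122899506 in GENCODE M21, or 4.43 kb. The longer interval also covers *Gm10959*, which has no row in the tables, and fragments from outside the gene could be included. Of 8 enterocyte markers, 2 were listed at all (*Cdhr5* and *Vil1*), and *Vil1* was at most 0.279 FPKM in any library. *Cdhr5* had 20.9 to 21.4 FPKM in WT and 23.0 to 34.2 FPKM in TRIM24C52/55A libraries, with no overlap, and was not called (adjusted p = 0.125 from limma).

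*Fabp4*, the adipocyte and macrophage form (ENSMUSG00000062515, chromosome 3, 10204088 to 10208576), had 16.1, 16.9 and 13.2 FPKM in WT and 6.55, 45.5 and 8.28 FPKM in TRIM24C52/55A replicates 1 to 3. TRIM24C52/55A replicates 1 and 3 lay below every WT library, while replicate 2 was 2.69 times the highest of the others. With all libraries the log2 fold change was -0.14 (standard error 0.59, interval from -1.49 to 1.21, adjusted p = 0.919 from limma). Without TRIM24C52/55A replicate 2 the mean of that group was 7.42 FPKM, 0.481 times the WT mean, and the log2 fold change was -0.96 (adjusted p = 0.0111 from limma). The call on *Fabp4* thus depended on that single library, and leaving out TRIM24C52/55A replicate 1 or 3 turned the sign (0.35 and 0.20).

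The library with high *Fabp4* and *Lpl* also held transcripts of adipocytes. *Adipoq* reached 4.55 FPKM in TRIM24C52/55A replicate 2, while the highest of the other libraries held 0.127 FPKM. Of 12 adipocyte markers 11 were listed, and 8 of these were highest in replicate 2; *Lep* and *Retn* were at 0 in every other library. *Cfd* and *Cidea* had lower means in TRIM24C52/55A than in WT livers, though within the TRIM24C52/55A group both were highest in replicate 2. *Cfd* had 4.17, 8.62 and 3.10 FPKM in WT and 0.112, 2.54 and 0.821 FPKM in TRIM24C52/55A replicates 1 to 3 (log2 fold change -1.61, not called at an adjusted p of 0.0617 by limma). *Cidea*, with 0.128, 0.889 and 0.184 FPKM in TRIM24C52/55A replicates 1 to 3, was at 0.211 times its WT mean, and the groups overlapped. The summed level of the list did not follow, at 1897 to 2267 FPKM in WT and 1956, 1469 and 2147 FPKM in TRIM24C52/55A replicates 1 to 3, since *Car3*, which the liver also expresses, made up most of it. The only called gene of this list, *Adrb3*, was higher in all 3 TRIM24C52/55A libraries (7.81, 12.4 and 10.6 FPKM against 1.99 to 2.17 FPKM in WT). *Cav1*, a caveolar coat gene of adipocytes and endothelium, was also highest in replicate 2, at 7.33 FPKM against 1.79 to 2.34 FPKM elsewhere. The 10 macrophage markers summed to 245 to 313 FPKM in WT and to 205, 292 and 208 FPKM in TRIM24C52/55A replicates 1 to 3; 2 of the 10 (*Marco* and *C1qa*) were highest in replicate 2, 10 of 10 had a log2 fold change below 0, and 0 were called by limma, with 2 (*Cd68* and *Cd5l*) at an unadjusted p under 0.05. Endothelial markers summed to 131 to 143 and 118 to 133 FPKM, with 1 of 10, *Lyve1*, called lower. Skeletal muscle markers summed to at most 1.26 FPKM in any library. The part of these other cells in *Fabp4*, *Lpl* and *Slc27a1* was not tested, and in such bulk RNA fewer cells of a type and less RNA per cell cannot be told apart. Hepatocyte markers were high throughout. Of the 10, 9 were listed, with sums of 21212 to 22004 FPKM in WT and 25569 to 30269 FPKM in TRIM24C52/55A libraries. *Serpina1e* alone, at 820 to 1352 FPKM in WT and 6615 to 10679 FPKM in TRIM24C52/55A libraries, differed by more than the mean sums did. Of the 9 markers 6 had a log2 fold change below 0, and *Asgr1* was called lower (-0.31, adjusted p = 0.0482 from limma). *Adipoq*, *Lep*, *Retn*, *Cidea*, *Cav1*, *Lyve1*, *Cd68*, *Marco*, *C1qa*, *Asgr1* and *Serpina1e* were chosen after their values were seen.

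**Figure D2:**
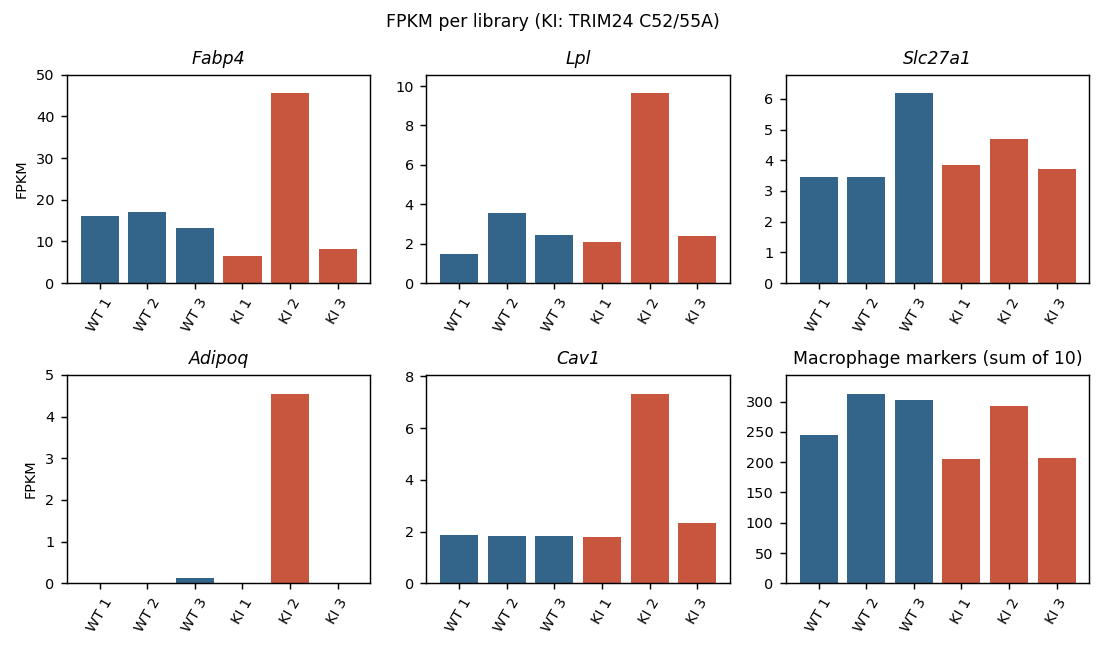
FPKM (linear axes from 0) per library, as bars, of *Fabp4*, *Lpl*, *Slc27a1*, *Adipoq* and *Cav1* and of the sum of 10 macrophage markers. WT libraries are blue and TRIM24C52/55A (KI) libraries red; KI 2 is highest for *Fabp4* (45.5 FPKM), *Lpl* (9.62 FPKM), *Adipoq* (4.55 FPKM) and *Cav1* (7.33 FPKM).

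The acyl-CoA synthetase *Acsl1* (ENSMUSG00000018796, chromosome 8, 46471037 to 46536051) was not called. It had 325, 293 and 344 FPKM in WT and 338, 290 and 316 FPKM in TRIM24C52/55A replicates 1 to 3. The groups overlapped over nearly their whole range. The log2 fold change was -0.03 (adjusted p = 0.896 from limma), with an interval from -0.24 to 0.18, or 0.848 to 1.14 times the WT level. The sign of this small value turned with median-of-ratios scaling (0.08), with quantile normalization (0.13), and without WT replicate 3 (0.02) or TRIM24C52/55A replicate 2 (0.03).

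**Figure D3:**
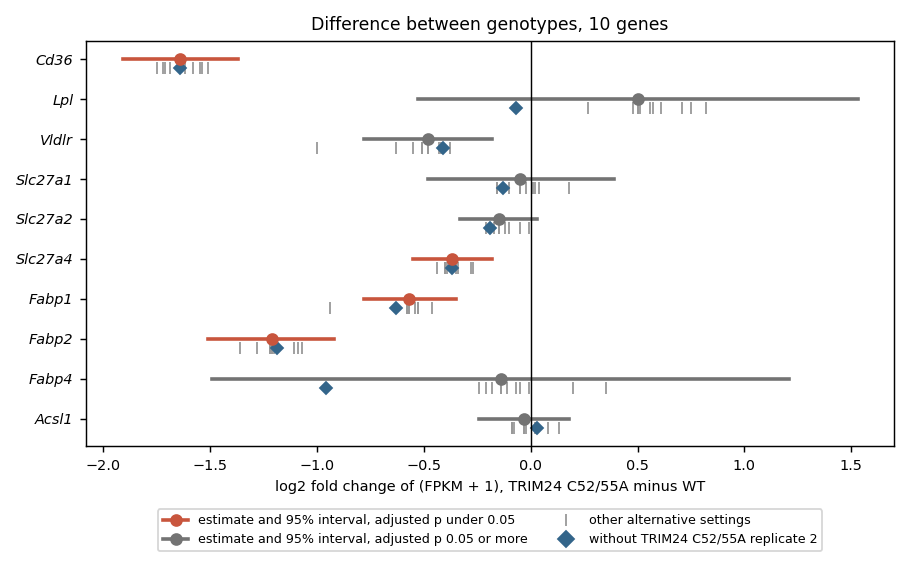
Log2 fold change of (FPKM + 1), TRIM24C52/55A minus WT, of the 10 genes, with 95% confidence intervals. Red marks an adjusted p under 0.05, grey ticks the alternative settings and blue diamonds the value without TRIM24C52/55A replicate 2, which stands apart for *Fabp4* (-0.96) and *Lpl* (-0.07).

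The other genes of these steps were read from 5 lists, 72 genes in all, of which 63 were tested. Of these, 12 were called lower and 0 higher, against 6.09% and 1.64% of all genes tested. The same shares apply beside the count of each list below. The median log2 fold change of the 63 was -0.16, against -0.08 over all genes tested and -0.26 over the 10 members. Quantile normalization called 2 of the 63 higher and 9 lower. The count of 12 fell to between 4 and 7 when WT replicate 1, 2 or 3 or TRIM24C52/55A replicate 1 was left out. It was 6 with median-of-ratios scaling and 19 with TPM.

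Of 10 tested genes of fatty acid transport and activation, 2 were called lower. *Acsl5*, a further long-chain acyl-CoA synthetase, had 150, 132 and 116 FPKM in WT and 87.1, 91.2 and 108 FPKM in TRIM24C52/55A replicates 1 to 3 (log2 fold change -0.47, adjusted p = 0.0480 from limma, lost in 9 of 13 alternatives). *Acsm3*, a synthetase of medium-chain fatty acids, had a log2 fold change of -0.38 (adjusted p = 0.0241 from limma, lost in 8 of 13 alternatives). *Slc27a5*, the bile acid and fatty acid CoA ligase of hepatocytes, had 380 to 395 FPKM in WT and 338 to 369 FPKM in TRIM24C52/55A livers, with an adjusted p of 0.279.

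Of 8 tested genes of lipid binding in the cell, 1 was called. *Dbi*, the acyl-CoA-binding protein, had 1437, 1360 and 1281 FPKM in WT and 974, 1077 and 1007 FPKM in TRIM24C52/55A replicates 1 to 3, a log2 fold change of -0.41 (adjusted p = 0.0226 from limma), with the call lost in 6 of 13 alternatives. *Fabp5*, the epidermal form of the binding proteins, had 4.61 to 11.7 and 5.61 to 16.6 FPKM, with groups that overlapped. *Fabp7*, the brain form, had 3.89 to 6.86 and 2.54 to 3.53 FPKM and an adjusted p of 0.121. *Slc27a5*, *Fabp5* and *Fabp7* were chosen after their values were seen.

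Of 18 tested genes of lipoprotein lipolysis and lipoprotein receptors, 4 were called lower. *Lipg*, endothelial lipase, had 5.09, 4.50 and 6.81 FPKM in WT and 1.82, 1.06 and 1.36 FPKM in TRIM24C52/55A replicates 1 to 3 (log2 fold change -1.42, adjusted p = 0.00321 from limma). *Apoc2*, the cofactor that activates lipoprotein lipase, had 509, 400 and 415 FPKM in WT and 155, 230 and 199 FPKM in TRIM24C52/55A replicates 1 to 3 (by limma, adjusted p = 0.00480 and log2 fold change -1.19).

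Of 10 tested genes listed as membrane partners of fatty acid uptake, 2 were called lower. *Mfsd2a*, a transporter of lysophosphatidylcholine, had 86.6, 77.0 and 112 FPKM in WT and 6.17, 14.7 and 15.1 FPKM in TRIM24C52/55A replicates 1 to 3 (log2 fold change -2.91, adjusted p = 0.00187 from limma). *Got2*, a mitochondrial aminotransferase also described as a fatty acid-binding protein of the plasma membrane, had a log2 fold change of -0.41 (adjusted p = 0.0215 from limma, lost in 6 of 13 alternatives), and -0.21 with quantile normalization.

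Of 17 nuclear regulators, 3 were called lower. *Pparg* had 9.42, 5.55 and 8.39 FPKM in WT and 1.90, 2.27 and 2.71 FPKM in TRIM24C52/55A replicates 1 to 3 (log2 fold change -1.40, adjusted p = 0.00491 from limma). *Nr1i3*, the receptor CAR, fell by 0.80 on the log2 scale (adjusted p = 0.0127 from limma, lost in 2 of 13 alternatives), and *Cebpb* fell by 0.94 (adjusted p = 0.0428, lost in 8 of 13 alternatives). *Ppara* had 28.0, 34.8 and 27.1 FPKM in WT and 33.4, 19.8 and 21.2 FPKM in TRIM24C52/55A replicates 1 to 3, with groups that overlapped and an interval of the log2 fold change from -0.72 to 0.14. *Hnf4a*, a regulator of hepatocyte identity, had a log2 fold change of 0.04 (interval -0.12 to 0.19), whose sign turned with TPM (-0.03).

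**Figure D4:**
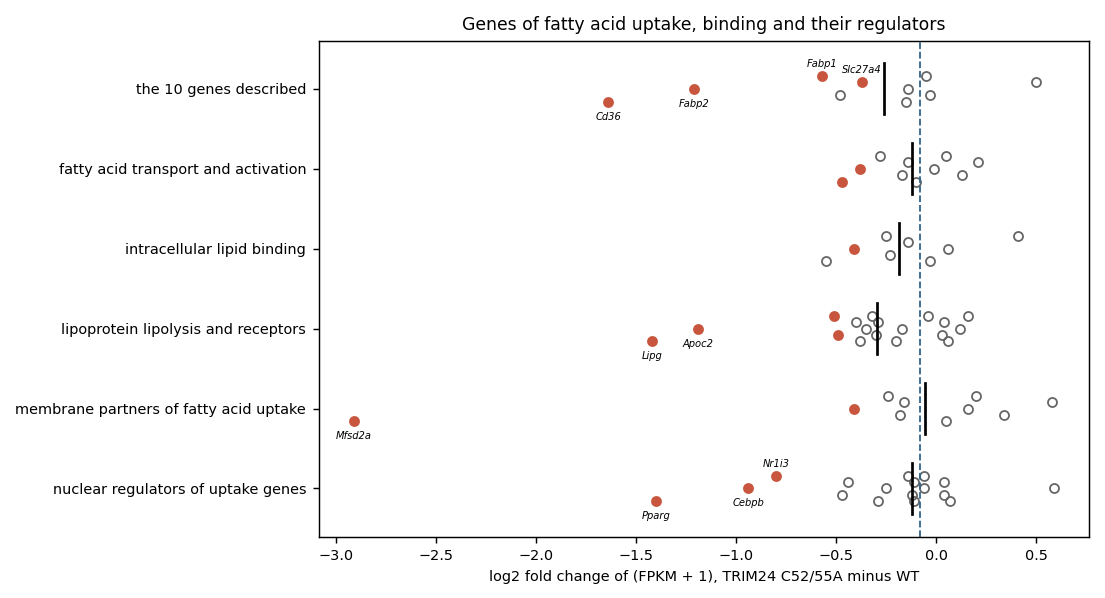
Log2 fold change of (FPKM + 1), TRIM24C52/55A minus WT, of each tested gene of the 10 described and of 5 further lists; vertical jitter has no meaning. Filled red points have an adjusted p under 0.05 (labelled where they lie below -0.6 or belong to the 10 genes), black bars are list medians (-0.26 for the 10 genes) and the dashed line is the median of all genes tested (-0.08).

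The genes most like the members of lowest adjusted p were ranked by Pearson's r of log2(FPKM + 1) over the 6 libraries, which share the genotype difference. For *Cd36* they were *Reep6* (r = 0.9987), *Acaa1b* (0.9981), *Aplp2* (0.998), *Tmem189* (0.9978) and *Pgk1-rs7* (0.9977). *Acaa1b*, a peroxisomal thiolase of fatty acid oxidation, had 1156 to 1403 FPKM in WT and 563 to 615 FPKM in TRIM24C52/55A livers. For *Fabp2* they were *Tmem184a* (r = 0.9997), *Psmd14* (0.9975), *Gstt1* (0.9965), *Gm4737* (0.9953) and *March8* (0.9948). *Pgk1-rs7*, *Psmd14* and *March8* were not called by limma. The gap between the genotypes enters each r. The genes were chosen for this r, so their likeness over the same libraries is a description only.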

How the data were processed

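Liver RNA of 3 WT and 3 TRIM24C52/55A mice was sequenced, 1 library per mouse, and groups were taken from the sample labels. The authors deposited 1 table of FPKM per library. The submitters' processing notes name bcl2fastq, Salmon 0.14.0 and GRCm38 without saying which tool gave the FPKM, and the annotation release is not given in the sources used here. Each table lists genes above 0, and a gene missing from a table was set to 0. Values were tested as log2(FPKM + 1) with limma 3.58.1 in R 4.3.3, WT against TRIM24C52/55A without covariates, over the 12225 of 21528 genes whose mean reached 0.5 FPKM, with Benjamini-Hochberg adjustment. On simulated data of 12225 genes for this comparison, the test recovered 69.7% of 99 genes changed 2-fold and 83.2% of 101 changed 4-fold, with 11 calls among unchanged genes. Exact permutation tests were two-sided. Python 3.11.15 was used for summaries. The members, gene lists and alternatives were chosen with earlier results of these data known, and the search for the single AGGTCA copy was added later. Named genes were all members, up to 15 called genes of lowest adjusted p from the 5 further lists, *Pparg*, *Ppara* and *Hnf4a*, up to 3 genes of highest mean FPKM per marker list, and the 5 genes most like the 2 members of lowest adjusted p. Alternatives were another pseudocount, other filters and scalings, a replicate block and leaving out each library. Some called genes of these lists are counted but not reported here by name, and protein sequences were not used here.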

Additional observations from a re-analysis of the deposited data

How the results depend on the processing

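*Cd36*, *Fabp2*, *Mfsd2a*, *Lipg*, *Apoc2* and *Pparg* were called lower in all 13 alternatives. Without a filter on low values the calls were 347 over all genes (944 in the reported analysis), 2 of the 10 members (reported 4), 5 other genes of uptake and binding (reported 12) and 8 marker genes (reported 16). With TPM they were 1555 over all genes and 19 other genes, and with median-of-ratios scaling 6 other genes. Leaving out 1 library gave 296 to 1272 calls over all genes, 2 to 5 members, 4 to 11 other genes and 9 to 19 marker genes. Same-numbered replicates had deviation correlations of -0.123, -0.0988 and 0.00267, so the numbers were not read as pairs, and a replicate block gave 578 calls over all genes and 7 other genes. Signs turned only for small or library-bound log2 fold changes. These were *Fabp4* without TRIM24C52/55A replicate 1 (0.35) or 3 (0.20), and *Lpl* without TRIM24C52/55A replicate 2 (-0.07). *Slc27a1* turned with median-of-ratios scaling (0.04), quantile normalization (0.02), and without WT replicate 3 (0.18) or TRIM24C52/55A replicate 3 (0.01). *Acsl1* turned with the same 2 scalings (0.08 and 0.13) and without WT replicate 3 (0.02) or TRIM24C52/55A replicate 2 (0.03), and *Hnf4a* turned with TPM (-0.03). Leaving out 1 library moved *Fabp4* between -0.96 and 0.35, *Slc27a1* between -0.16 and 0.18, *Lpl* between -0.07 and 0.82 and *Acsl1* between -0.09 and 0.03. The cause was not tested. The median log2 fold change of all genes was -0.08 as reported, -0.14 with TPM and 0.01 with median-of-ratios scaling. *Vldlr* could not be tested with a filter of at least 1 FPKM. With 3 mice per group and FPKM alone, precision rests on the spread between mice, and counting error could not be given.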
